A study of Mus musculus with 35 samples.

Results

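The genes described here are *Runx1*, *Runx2* and *Runx3*, the RUNX transcription factors of the mouse, and *Cbfb*, which encodes CBFβ, the subunit they share. They were taken by symbol from the deposited count table, in which each symbol had 1 gene identifier, and are 4 of its 53465 genes. All 4 passed the filter on low counts in every comparison. They were read in 35 RNA-seq libraries of mKate2+ mouse pancreatic ductal adenocarcinoma (PDAC) cells, taken by sorting out of primary pancreatic tumors and metastases in liver or lung. The cells, named KC-shSmad4, carry Ptf1a-Cre, which is expressed in the embryonic and acinar pancreas, a Cre-activated Rosa26 allele of rtTA3 and mKate2 (RIK), and a GFP-linked shRNA against *Smad4* in the Col1a1 locus, which doxycycline (Dox) switches on. These alleles are common to all 35 libraries.

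Cells from such tumors were put into the tail of the pancreas, into the spleen followed by its removal (liver metastases) or into the tail vein (lung metastases) of female Foxn1nu nude mice of 6 to 8 weeks, which have few T cells but keep other leukocytes, and all hosts received Dox before the injection. By the labels and the study's methods, Dox went on in the groups labelled *Smad4* off. In those labelled *Smad4* on it was withdrawn at week 4 (pancreas), 5 (liver) or 6 (lung) after injection, so organ, route and week cannot be told apart. The *Smad4* levels given below run opposite to these labels, so the Dox status of each library is not taken as known. Cells were sorted 7 or 14 days later. At day 7 there were 3 labelled off and 2 labelled on libraries from primary tumors, 2 and 3 from liver, and 4 and 2 from lung. At day 14 there were 2 and 3, 3 and 3, and 4 and 4. The labels number the mice within each group, and how many cell lines or clones were injected was not given in the sources used here.

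Libraries held 11885461 to 43571007 counts, and levels are given as CPM, counts per unit of each library's effective size, which is its total multiplied by its TMM normalization factor. *Smad4* itself was lower in all 17 libraries labelled on, at 14.8 to 22.4 CPM, than in all 18 labelled off, at 69.9 to 143 CPM, opposite to what the labels say. The cause of this was not tested. The labels are therefore used only as names, and every difference by label is the level labelled on relative to the level labelled off. The paired-end library of liver metastases, day 7, labelled off, mouse 2, stood apart: its summed fibroblast markers reached 38313 CPM, and its carcinoma cell markers came to 3813 CPM, below every other liver library. Differences between groups that rest on it are given with and without it, whereas correlations use all libraries. The mitochondrial gene *mt-Co3* had counts in 10 libraries, 4 of liver and 6 of lung metastases, and was at 0 in the rest, a split the labels do not account for. A lower level in bulk samples of this kind can come from fewer cells that express a gene or from less RNA per cell, and these cannot be told apart.

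RUNX proteins bind DNA through the Runt domain. CBFβ does not contact DNA but joins the Runt domain, which strengthens the binding and protects the RUNX protein from degradation. RUNX1 is needed for blood stem cells, RUNX2 for bone and RUNX3 for T cells and sensory neurons, and all take part with SMAD proteins in transforming growth factor-β (TGFβ) responses. Each RUNX gene has a distal and a proximal promoter, and the distal promoters are known for holding RUNX motifs of their own.

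The distal promoters are shown first, because the family members have a stretch of sequence there in common. RefSeq start sites on GRCm38.p6 gave 6 windows for the 4 genes, each 300 bases long (250 before the start site and 50 after). Windows were searched on both strands for the RUNX motifs ACCACA and ACCGCA, which do not overlap each other in these windows. The 30-base stretches below read 5′ to 3′ along the gene's strand, and the capitals mark the motifs, with TGCGGT being ACCGCA on the other strand.
Runx1: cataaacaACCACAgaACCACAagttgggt
Runx2: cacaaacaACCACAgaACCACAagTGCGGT
Runx3: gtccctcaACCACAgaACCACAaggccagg
They lie at chr16:92826025-92826054 (minus strand), chr17:44814583-44814612 (minus strand) and chr4:135120503-135120532 (plus strand). All contain 1 identical run of 18 bases with 2 ACCACA motifs in tandem, 27 to 44 bases after the start site in *Runx1*, 22 to 39 bases after it in *Runx2* and 136 to 119 bases before it in *Runx3*. The run occurred in 4 of 32851 promoter windows of the mouse, those of the RUNX genes and that of *Gm16225*, whose window overlaps that of *Runx3*. By comparison, 16.8% of all windows held ACCACA, 6.45% held ACCGCA, 22.4% held either, and 1.81% held ACCACA at least 2 times. The *Runx2* window held 3 ACCACA and 1 ACCGCA. The windows of *Cbfb* and of the proximal promoters of *Runx1* and *Runx3* held neither, which says only that these letters are not there. Counts were made per gene, so which promoter a transcript came from was not measured.

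Each member had its own range of levels over the 35 libraries. *Runx1* (ENSMUSG00000022952, chromosome 16, 92601466 to 92826149, minus strand) ran from 60.0 to 208 CPM with a median of 119. *Runx2* (ENSMUSG00000039153, chromosome 17, 44495987 to 44814797, minus strand) ran from 14.6 to 79.1 CPM with a median of 46.0. *Runx3* (ENSMUSG00000070691, chromosome 4, 135120652 to 135177990, plus strand) ran from 1.998 to 50.6 CPM with a median of 14.1, and *Cbfb* (ENSMUSG00000031885, chromosome 8, 105170674 to 105217989, plus strand) from 69.7 to 176 CPM with a median of 102. *Runx3* thus had the widest fold range, its highest library being 25.3 times its lowest, compared with 5.43 for *Runx2*, 3.46 for *Runx1* and 2.53 for *Cbfb*. The highest library of *Runx1*, *Runx3* and *Cbfb* was the paired-end one, and the next value of *Runx3* was 35.7 CPM. Among genes of like mean level, the SD of log2 CPM ranked at percentile 86.2 for *Runx3* and 87.1 for *Runx2*. It ranked at 69.9 for *Runx1* and 54.7 for *Cbfb*, so *Runx3* did not exceed *Runx2* on that scale. The lowest count behind any of these values was 52, for *Runx3*, against a floor of 3 counts.

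**Figure D1:**
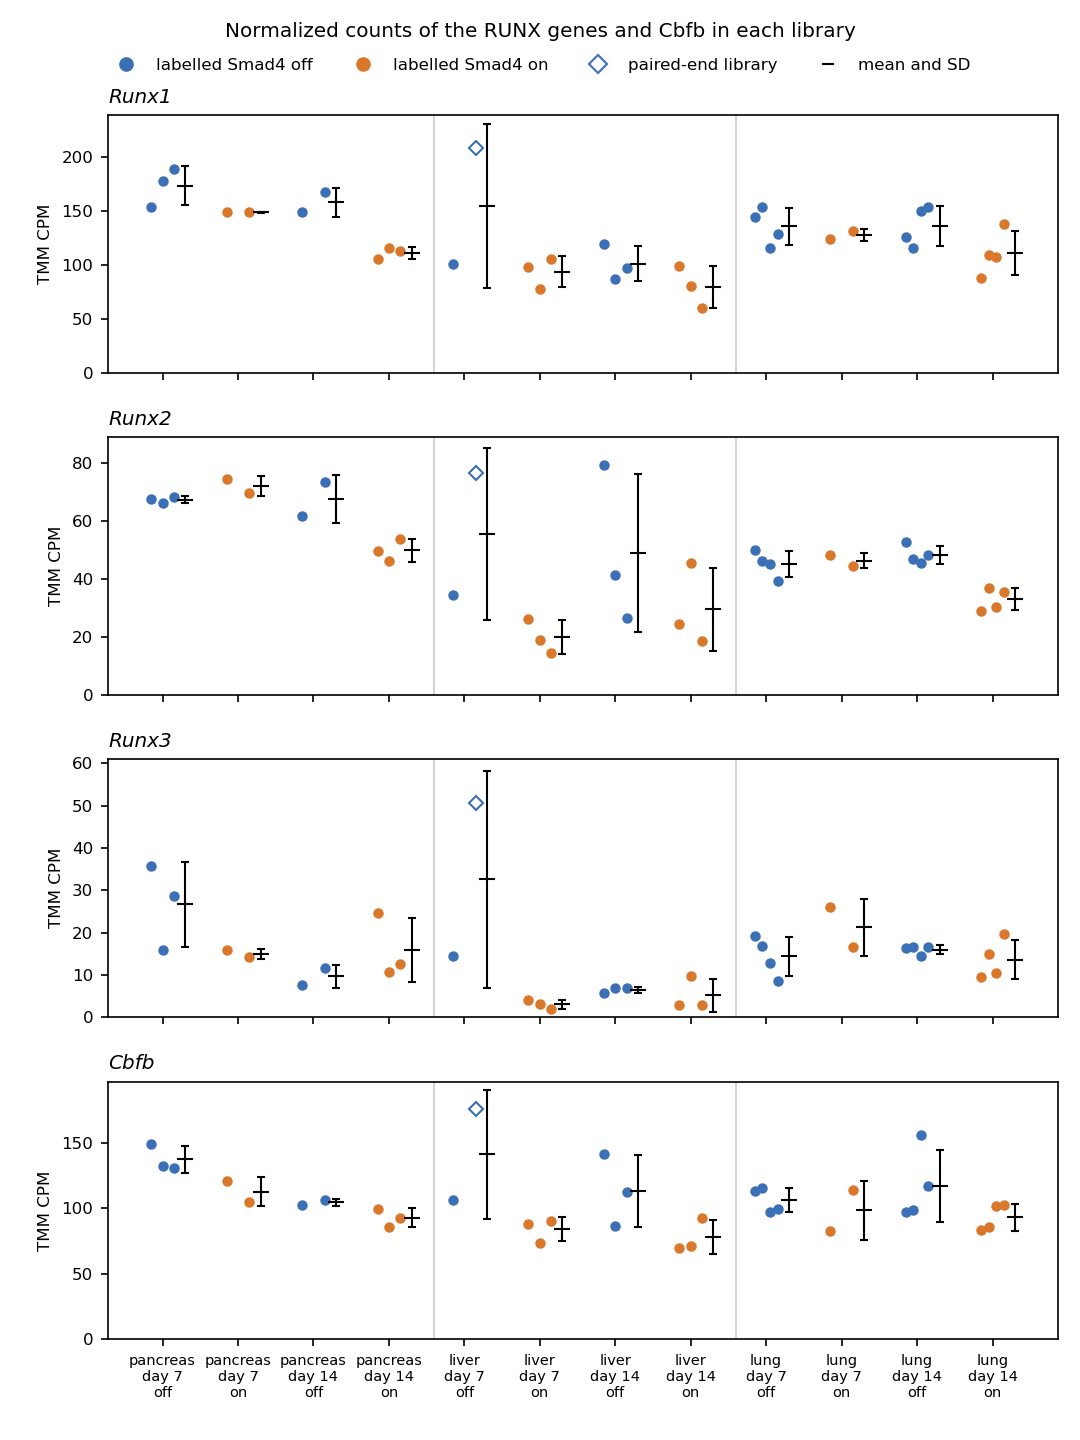
Level of each RUNX gene and Cbfb in CPM (linear axes from 0) in every library, by organ, day and Smad4 label. Each point is 1 library, the open diamond is the paired-end library, and the black bars give the mean and SD of each group. Runx3 in liver metastases labelled on lies between 1.998 and 9.65 CPM and holds the lowest value of that gene, and the library of liver metastases, day 7, labelled off, mouse 2 is the highest point for Runx1, Runx3 and Cbfb.

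Levels of different genes can be compared only per length. Divided by the transcript length that the deposited table gives for each gene, the median level was 29.3 CPM per kb for *Cbfb*, 10.1 for *Runx1*, 5.21 for *Runx2* and 2.83 for *Runx3*. That length equals the union of all annotated exons for *Runx2* (8837 bases), *Runx3* (5003) and *Cbfb* (3480). For *Runx1* it is 11827 bases, against a union of 12025. Levels per kb and shares depend on this choice of length, and no other was tried. The shared subunit stood above its partners together on this scale: the summed RUNX level per kb was 0.29 to 0.89 of the *Cbfb* level per kb (median 0.65), and below it in all 35 libraries. Of the summed RUNX level per kb, *Runx1* made up a median of 57.0%, *Runx2* 26.1% and *Runx3* 13.9%.

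The make-up of the RUNX pool differed most in liver metastases labelled on. There the median share of *Runx1* was 69.7% (48.8 to 81.3%, 6 libraries), and that of *Runx3* was 6.63% (3.65 to 13.9%). In lung metastases labelled on, *Runx3* took 17.6% (14.2 to 24.6%, 6 libraries), and in primary tumors labelled on 13.1% (12.1 to 25.3%, 5 libraries). The *Runx3* shares of liver and lung labelled on did not overlap. The pool itself was also lowest in liver labelled on, with a median of 11.3 CPM per kb (7.76 to 13.8), compared with 17.9 in lung and 19.4 in primary tumors labelled on, and with 15.3, 20.3 and 25.7 in liver, lung and primary tumors labelled off. These shares come from the same counts as the comparisons that follow and were not tested on their own.

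**Figure D2:**
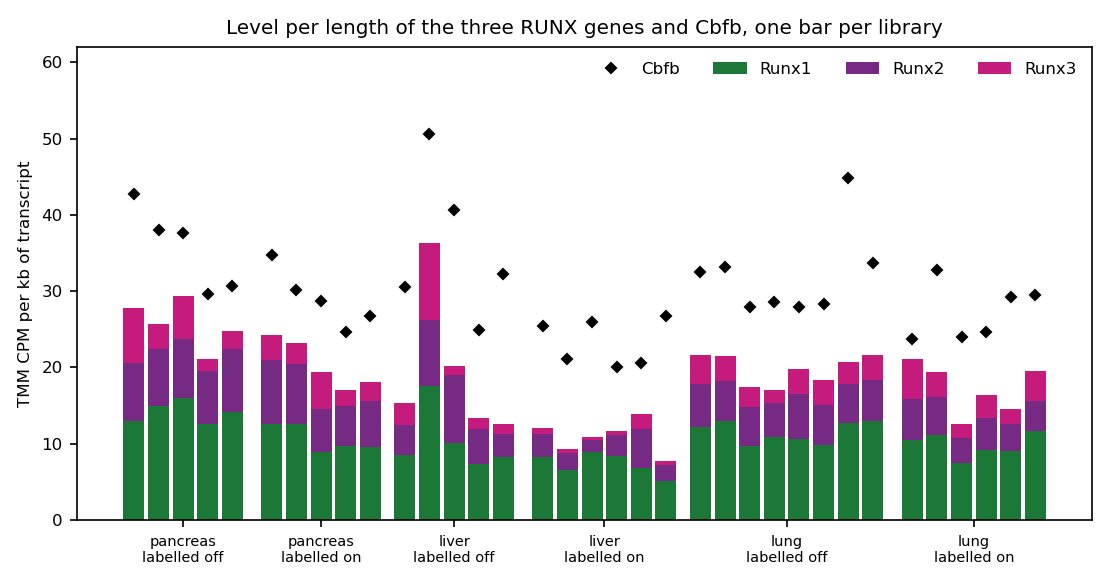
Level of Runx1, Runx2 and Runx3 in CPM per kb of transcript (linear axis from 0), stacked in 1 bar per library, with the Cbfb level of the same library as a diamond, by organ and label. Every diamond lies above its bar, and the bars of liver metastases labelled on reach 7.76 to 13.8 CPM per kb, with a median Runx3 share of 6.63%.

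Liver metastases labelled on had the lowest mean of every member. For *Runx1* the means in order were 167 ± 16.6 CPM in primary tumors labelled off (SD, n = 5), 136 ± 16.4 in lung labelled off (n = 8), 126 ± 21.1 in primary tumors labelled on (n = 5), 122 ± 49.1 in liver labelled off (n = 5), 116 ± 18.3 in lung labelled on (n = 6) and 86.8 ± 17.1 in liver labelled on (n = 6). For *Runx2* they were 67.4 ± 4.20 and 58.7 ± 12.6 in primary tumors labelled off and on, 51.5 ± 24.5 in liver labelled off, 46.7 ± 3.96 and 37.4 ± 7.56 in lung labelled off and on, and 24.7 ± 11.1 in liver labelled on. Neighbours in these orders differed by less than the larger of their SDs, apart from the first and last steps of *Runx1* and the last 2 steps of *Runx2*. For *Runx3* the means of both lung and both primary tumor groups fell between 15.1 and 19.9 CPM and differed by less than the larger of their SDs, liver labelled off stood at 16.9 ± 19.2 and liver labelled on at 4.10 ± 2.80. For *Cbfb* the means were 125 ± 34.9 in liver, 124 ± 19.2 in primary tumors and 112 ± 19.8 in lung labelled off, and 101 ± 13.3 in primary tumors, 95.1 ± 13.04 in lung and 81.1 ± 10.6 in liver labelled on, each step being within the spread except the last. Without the paired-end library the means of liver labelled off (n = 4) were 101 ± 13.4 CPM for *Runx1*, 45.3 ± 23.3 for *Runx2*, 8.44 ± 4.07 for *Runx3* and 112 ± 22.6 for *Cbfb*. That of *Runx3* was then below every other group but liver labelled on, and that of *Runx1* lay between lung and liver labelled on, within the larger SD of either.

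The first comparison asked whether the members changed with the *Smad4* label within an organ. A gene was called changed when edgeR's quasi-likelihood test gave a Benjamini-Hochberg adjusted P under 0.05 over all genes tested and the fold change exceeded 2. By this rule 0 of the 4 members was called in any of the 6 comparisons by organ and day. The unadjusted P was under 0.05 for *Runx1* and *Runx2* in primary tumors at day 14, for *Runx2*, *Runx3* and *Cbfb* in liver metastases at day 7 and for *Runx2* in lung metastases at day 14. The same held for 28.6% of all genes in the first of these comparisons, 27.1% in the second and 10.1% in the third.

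In primary tumors at day 7, where 1.33% of genes tested were called, *Runx3* stood at 35.7, 15.9 and 28.5 CPM labelled off and at 15.8 and 14.1 CPM labelled on. The log2 fold change was −0.82 ± 0.35 (SE; adjusted P = 0.232). *Cbfb* was at 149, 132 and 131 CPM labelled off and at 121 and 105 CPM labelled on. The groups did not overlap for any of the 4 members at day 7, but neither did they for 43.3% of all genes, so this separation does not set the members apart. *Runx1* (153, 177 and 189 CPM against 149 and 148) and *Runx2* (67.5, 66.0 and 68.3 CPM against 74.4 and 69.7) differed by −0.21 and 0.11 on the log2 scale.

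At day 14 in primary tumors *Runx1* and *Runx2* passed the adjusted P threshold, below the 2-fold limit. *Runx1* was at 149 and 167 CPM labelled off and at 105, 115 and 113 CPM labelled on, a log2 fold change of −0.49 ± 0.09 (adjusted P = 0.0134). *Runx2* was at 61.7 and 73.3 CPM labelled off and at 49.6, 46.1 and 53.8 CPM labelled on, a log2 fold change of −0.42 ± 0.11 (adjusted P = 0.0483). The libraries labelled on were thus the lower ones for both genes, as for *Cbfb* (103 and 107 CPM against 99.9, 85.6 and 92.9), whose log2 fold change was −0.15 ± 0.09 (adjusted P = 0.306). Among all genes 4.64% were called in this comparison, 12.9% passed the adjusted P alone, and 47.2% had groups that did not overlap. *Runx3* overlapped, with 7.61 and 11.6 CPM against 24.6, 10.6 and 12.6 CPM, the first labelled on library being the high one (log2 fold change 0.75 ± 0.42, adjusted P = 0.306). Without 1 library in turn, the log2 fold change of *Runx1* ran from −0.59 to −0.39 and its adjusted P from 0.00142 to 0.118, the highest being without mouse 2 labelled off. For *Runx2* they ran from −0.55 to −0.28 and from 0.0141 to 0.312, and the adjusted P passed the threshold only without mouse 1 labelled on. Over both days together, with day in the model, the log2 fold change of *Runx1* was −0.36 ± 0.08 (adjusted P = 0.017, passed by 15% of genes; 4.08% were called), and that of *Cbfb* −0.22 ± 0.08 (adjusted P = 0.0693).

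The largest differences by label were in liver metastases at day 7, and they rested on 2 libraries labelled off that differed widely. *Runx3* was at 14.5 CPM in mouse 1 and 50.6 CPM in the paired-end library of mouse 2, and at 4.04, 3.07 and 1.998 CPM labelled on. Its log2 fold change was −3.48 ± 0.62 (adjusted P = 0.0632), with a 95% interval from −5.05 to −1.92. *Runx2* was at 34.5 and 76.5 CPM labelled off and at 26.1, 18.9 and 14.6 CPM labelled on, a log2 fold change of −1.55 ± 0.42 (adjusted P = 0.0994). Both genes were lower in each labelled on library than in either labelled off library. *Cbfb* likewise did not overlap, with 106 and 176 CPM against 88.4, 73.3 and 90.5 CPM (−0.83 ± 0.26, adjusted P = 0.121), whereas *Runx1* did, with 101 and 208 CPM against 98.2, 78.0 and 105 CPM (−0.79 ± 0.34, adjusted P = 0.208). In this comparison 0.444% of genes were called, and 45.9% had groups that did not overlap. DESeq2 called *Runx2* (adjusted P = 0.0118) and *Runx3* (1.51e-06), as did a single fit of all 12 groups (0.00189 and 4.85e-05), and these called 9.87% and 17.6% of all genes.

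Which library labelled off was used decided these values. Without the paired-end library the log2 fold changes were −2.35 for *Runx3* (adjusted P = 0.0529), −0.89 for *Runx2* (0.190), −0.44 for *Cbfb* (0.212) and −0.21 for *Runx1* (0.573). Without the other library labelled off they were −4.08 for *Runx3* (adjusted P = 0.00401), −1.97 for *Runx2* (0.0156), −1.17 for *Runx1* (0.0233) and −1.09 for *Cbfb* (0.0188), and all 4 were called, in a fit that called 19.8% of all genes. In each of these fits a single library stands for the labelled off group and is assumed to vary like those labelled on. Summed fibroblast markers were 38313 CPM in the paired-end library and 405 to 4963 CPM in the other 10 liver libraries, and acinar markers 418 CPM against at most 16.9. The part of these cells in the member levels was not tested.

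In liver metastases at day 14 the members overlapped between the labels. *Runx2* was at 79.1, 41.2 and 26.5 CPM labelled off and at 24.3, 45.6 and 18.6 CPM labelled on (log2 fold change −0.78 ± 0.50, adjusted P = 0.674). *Runx3* was at 5.64, 6.83 and 6.80 CPM against 2.90, 9.65 and 2.94 CPM (−0.34 ± 0.53, adjusted P = 0.893). Mouse 2 labelled on held the highest *Runx3* value of the 6 libraries and the highest *Runx2* value of its label. *Runx1* was at 119, 86.6 and 97.5 CPM against 99.2, 80.0 and 60.0 CPM, and *Cbfb* at 141, 86.6 and 112 CPM against 69.7, 71.5 and 93.0 CPM, with log2 fold changes of −0.39 ± 0.23 and −0.58 ± 0.25 (adjusted P = 0.656 and 0.515). Here 0% of genes were called, 15% of genes did not overlap, and 9.68% had an unadjusted P under 0.05. Over both days *Cbfb* passed the adjusted P threshold with a log2 fold change of −0.69 ± 0.18 (adjusted P = 0.0396, passed by 8.52% of genes; 5.67% were called), but leaving out any of 8 of the 11 libraries put it above the threshold, at up to 0.0928 (−0.55 and 0.0882 without the paired-end library). *Runx3* had −1.80 ± 0.68 over both days (adjusted P = 0.114), and −1.11 without that library. Its mean log2 difference was −0.92 within the liver libraries without *mt-Co3* counts (4 labelled on, 3 off) and −2.89 within those with them (2 and 2, of which 1 is the paired-end library), and that of *Cbfb* −0.53 and −0.62. Without mouse 2 labelled on of day 14 both *Runx3* (−2.34, adjusted P = 0.0282) and *Runx2* (−1.40, 0.0369) were called, as were 6.51% of genes, and without mouse 3 labelled off of day 14 *Runx2* was (−1.31, 0.033), as were 10.8% of genes.

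In lung metastases at day 7 no member was called, in a comparison in which 0% of genes were called and 5.22% had an unadjusted P under 0.05. *Runx3* was at 19.2, 16.7, 12.9 and 8.59 CPM labelled off and at 25.9 and 16.5 CPM labelled on (log2 fold change 0.58 ± 0.33, adjusted P = 0.998). *Runx1* (144, 154, 115 and 129 CPM against 124 and 131), *Runx2* (50.0, 46.0, 45.2 and 39.1 CPM against 48.1 and 44.4) and *Cbfb* (113, 115, 97.04 and 99.4 CPM against 82.7 and 114) overlapped, with log2 fold changes of −0.07, 0.06 and −0.08. The 95% intervals of these 3 differences lay within −0.54 and 0.40, so a 2-fold change of *Runx1*, *Runx2* or *Cbfb* lay outside them.

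At day 14 in lung metastases *Runx2* was the member that separated the labels. It was at 52.6, 46.7, 45.4 and 48.1 CPM labelled off and at 29.1, 36.8, 30.4 and 35.4 CPM labelled on. The log2 fold change was −0.56 ± 0.11 (unadjusted P = 0.000823, adjusted P = 0.190), with all 4 labelled on libraries below all 4 labelled off, a separation found in 5.71% of genes. The labels do not say whether a mouse number marks a pair. With the number as a block the adjusted P of *Runx2* was 0.0617. The mean log2 difference of *Runx2* was −0.60 within the libraries without *mt-Co3* counts and −0.51 within those with them (2 of each label). DESeq2 gave it an adjusted P of 0.0051, and a fit with *mt-Co3* status as a term 0.0345, in both cases under the 2-fold limit. *Runx1* (125, 116, 150 and 153 CPM against 87.9, 109, 108 and 138), *Runx3* (16.3, 16.6, 14.4 and 16.5 CPM against 9.42, 15.0, 10.4 and 19.7) and *Cbfb* (97.03, 98.5, 156 and 117 CPM against 83.3, 85.7, 102 and 103) overlapped, with log2 fold changes of −0.31, −0.23 and −0.34. In all, 0.0271% of genes were called. Over both days, where 0.173% of genes were called, the *Runx2* difference was −0.31 ± 0.11 (adjusted P = 0.316).

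**Figure D3:**
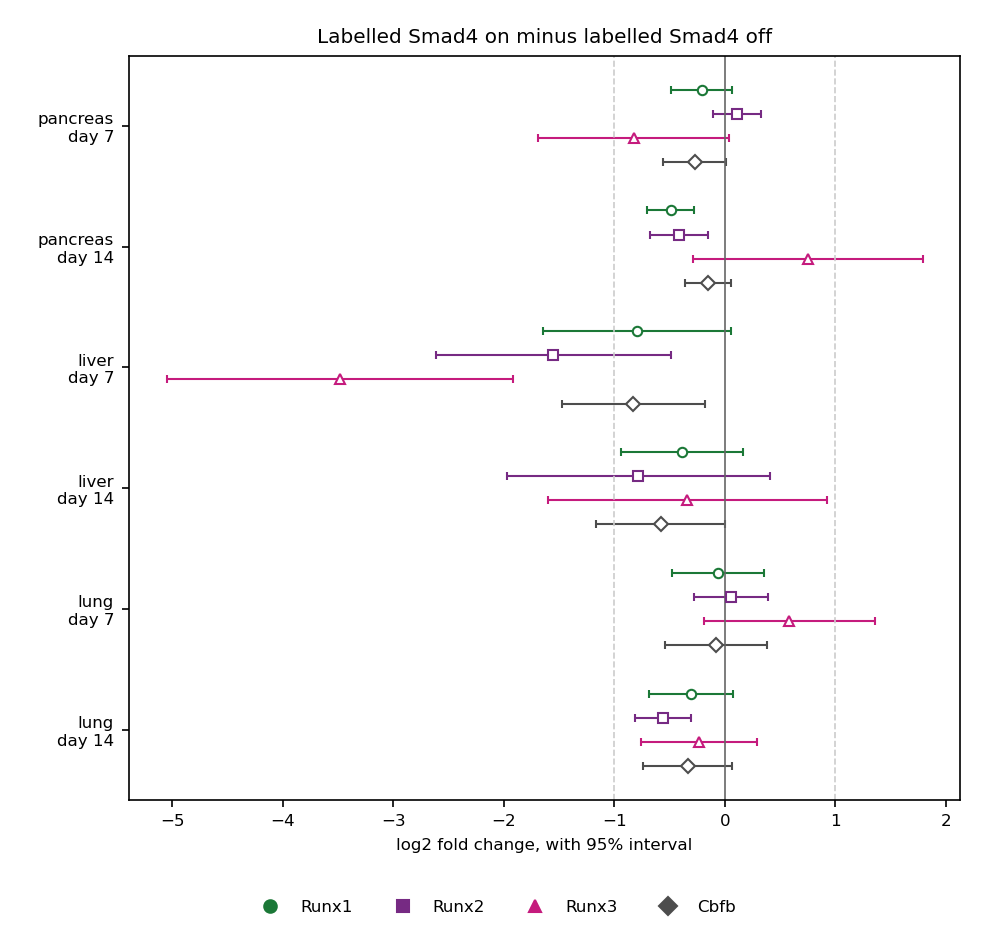
Log2 fold change of each member, labelled on relative to labelled off, for the 6 comparisons by organ and day, with 95% intervals. The differences of Runx2 and Runx3 in liver metastases at day 7, at −1.55 and −3.48, lie farthest from 0, with intervals from −2.62 to −0.49 and from −5.05 to −1.92.

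The second comparison asked whether the members differed between organs at the same label, over both days with day in the model. Among libraries labelled off 0 of 4 members was called in any pair of organs. Between liver and lung, where 3.95% of genes were called, the log2 differences were −0.14 for *Runx1* (95% interval −0.48 to 0.21), 0.16 for *Runx2* (−0.27 to 0.60), −0.13 for *Runx3* (−1.01 to 0.75) and 0.17 for *Cbfb* (−0.16 to 0.51). The interval of *Runx3* still includes a 2-fold lower level in liver. Without the paired-end library *Runx3* stood at −0.81 (adjusted P = 0.128), *Runx1* at −0.42 (adjusted P = 0.0363) and *Runx2* at −0.08, and at day 14 alone, where that library does not enter, *Runx3* was called lower in liver at −1.29 (adjusted P = 0.0251), where 0.874% of genes were called.

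Against primary tumors, the liver libraries labelled off differed by −0.47 in *Runx1* (adjusted P = 0.088), −0.43 in *Runx2*, −0.23 in *Runx3* and −0.01 in *Cbfb* on the log2 scale, in a comparison that called 8.68% of genes. Here too the paired-end library mattered: without it the differences were −0.71 for *Runx1* (adjusted P = 0.000651), −0.63 for *Runx2* (0.0477), −0.999 for *Runx3* (0.0497) and −0.15 for *Cbfb* (0.583), the first 3 past the adjusted P threshold and none past the 2-fold limit. Lung metastases labelled off held less *Runx2* than primary tumors, from 39.1 to 52.6 CPM against 61.7 to 73.3 CPM, with no overlap (log2 difference −0.59 ± 0.21, adjusted P = 0.0347). Its adjusted P was 0.00864 to 0.134 over the fits that left out 1 library, above the threshold in 11 of 18, the highest being without day 14 primary tumor mouse 2. In that comparison 18.4% of genes were called, 34.4% passed the adjusted P alone, and 21.5% did not overlap.

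Among libraries labelled on, liver metastases stood below the other organs. *Runx3* ranged from 1.998 to 9.65 CPM in liver with a median of 3.01, from 9.42 to 25.9 CPM in lung with a median of 15.8, and from 10.6 to 24.6 CPM in primary tumors with a median of 14.1. The log2 difference was −1.99 ± 0.37 between liver and lung (adjusted P = 0.00165), and −1.94 ± 0.38 between liver and primary tumors (adjusted P = 0.000636), both called lower in liver, about 3.97-fold and 3.84-fold. The ranges of liver and lung met at the day 14 library of liver mouse 2 (9.65 CPM) and 1 lung library (9.42 CPM), whose order depends on the scaling, since on raw library totals they stood at 9.63 and 9.74 CPM. Liver and primary tumors did not overlap. Of all genes, 10.3% were called between liver and lung (5.04% lower in liver), and 22.2% between liver and primary tumors (11.4% lower), so calls as such were common in these comparisons.

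*Runx2* labelled on ranged from 14.6 to 45.6 CPM in liver, from 29.1 to 48.1 CPM in lung and from 46.1 to 74.4 CPM in primary tumors. It was called lower in liver than in primary tumors, with a log2 difference of −1.26 ± 0.24 (adjusted P = 0.000574) and no overlap, as was the case for 28.3% of genes. Between liver and lung the difference was −0.61 ± 0.23 (adjusted P = 0.0734), and between lung and primary tumors −0.65 ± 0.24 (adjusted P = 0.0543). *Runx2* therefore stood in the order primary tumor, lung, liver, in which only the ends differed past the threshold with all libraries. Without day 14 liver mouse 2 labelled on, both steps passed the adjusted P threshold, under the 2-fold limit. They were then −0.93 between liver and lung (adjusted P = 0.000787) and −0.64 between lung and primary tumors (0.00575). Of the 17 fits that left out 1 library, the adjusted P was above the threshold in 16 and 15.

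*Runx1* and *Cbfb* showed smaller differences in the same direction. *Runx1* labelled on was lower in liver (60.0 to 105 CPM) than in lung (87.9 to 138 CPM), with a log2 difference of −0.48 ± 0.12 (adjusted P = 0.0118), and than in primary tumors (105 to 149 CPM), with −0.58 ± 0.13 (adjusted P = 0.00174). *Cbfb* was lower in liver (69.7 to 93.0 CPM) than in primary tumors (85.6 to 121 CPM), with −0.34 ± 0.12 (adjusted P = 0.0289, or 0.0986 without day 7 primary tumor mouse 1), and its difference from lung (82.7 to 114 CPM) was −0.27 ± 0.11 (adjusted P = 0.112). None of these reached 2-fold, and 20.2% (liver and lung) and 40.6% (liver and primary tumors) of all genes passed the adjusted P alone. Lung and primary tumors labelled on, where 13.6% of genes were called, differed by 0.05 in *Runx3* (95% interval −0.74 to 0.83), −0.09 in *Runx1* and −0.08 in *Cbfb*. The liver group is shared by 2 of these comparisons, which are therefore not independent.

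Day and library composition moved with part of the result. At day 7 alone the liver to lung difference was −2.82 for *Runx3* (adjusted P = 0.012) and −1.24 for *Runx2* (adjusted P = 0.031), and both were called, as were 6.41% of genes. At day 14 alone *Runx3* was at −1.41 against lung (adjusted P = 0.163) and −1.66 against primary tumors (0.0502), and *Runx2* at −0.79 against primary tumors (0.0627). No member was called at that day alone, and the cause of this was not tested. Within the libraries without *mt-Co3* counts (4 of liver, 3 of lung) the mean log2 difference of *Runx3* was −1.81, and within those with them (2 of liver, 3 of lung) it was −2.58. For *Runx1* the same values were −0.26 and −0.65. Primary tumors held no library with *mt-Co3* counts, and against the 4 liver libraries without them the differences were −1.76 for *Runx3* and −1.08 for *Runx2*. Leaving out any 1 of the 17 libraries labelled on gave −2.48 to −1.80 between liver and lung and −2.45 to −1.73 between liver and primary tumors for *Runx3*, called every time.

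**Figure D4:**
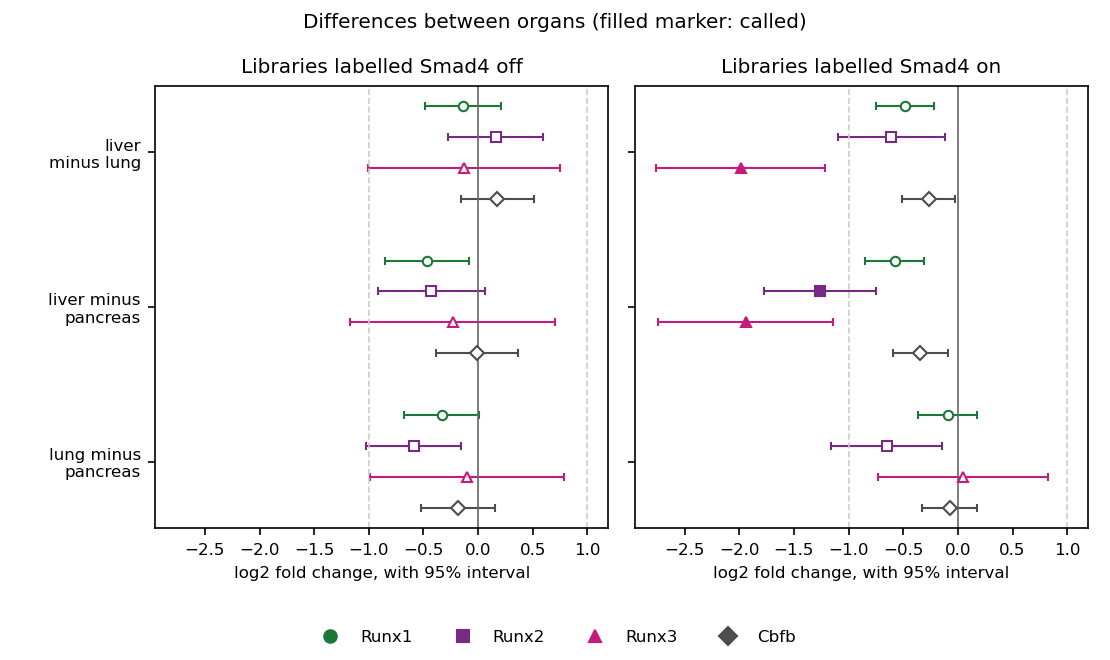
Log2 difference of each member between organs, at each Smad4 label over both days, with 95% intervals and filled markers for called differences. Among libraries labelled on, Runx3 lies at −1.99 between liver and lung and at −1.94 between liver and primary tumors. Among those labelled off, the corresponding intervals of Runx3 include 0.

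Markers of other cells differed between the same groups. RUNX1 and RUNX3 are abundant in leukocytes, and the summed leukocyte markers overlapped, at 67.2 to 412 CPM in liver labelled on and 42.7 to 393 CPM in lung labelled on. *Ptprc* (CD45), found on nearly all leukocytes, was at 2.01 to 16.1 CPM in liver, 1.30 to 7.80 CPM in lung and 3.13 to 5.21 CPM in primary tumors labelled on, and the T cell gene *Cd3e* was at 0 in 25 of 35 libraries. Hepatocyte markers were higher in liver labelled on, at 36.1 to 144 CPM against 6.08 to 20.3 CPM in lung and 2.06 to 10.8 CPM in primary tumors labelled on, without overlap. Endothelial markers were lower in liver (3.33 to 13.02 CPM against 33.4 to 92.3 CPM in lung), and carcinoma cell markers were higher (14511 to 17688 CPM against 7896 to 11920 CPM), both without overlap. Fibroblast markers, at 405 to 3275 CPM in liver and 418 to 2074 CPM in lung, overlapped, but in primary tumors labelled on they reached 9656 to 26680 CPM, and acinar markers 761 to 2270 CPM. Their part in the member levels was not tested.

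The last comparison asked whether the difference by label itself differed between organs. The liver minus lung difference of the label effects was −1.86 ± 0.63 for *Runx3* (adjusted P = 0.0978), −0.76 ± 0.31 for *Runx2* (0.172), −0.39 ± 0.19 for *Cbfb* (0.232) and −0.30 ± 0.20 for *Runx1* (0.449). No member was called, where 1.66% of genes were (DESeq2, with 2.44% of genes called, called *Runx3*, adjusted P = 0.0287), and without the paired-end library the values of *Runx3* and *Runx2* were −1.14 (adjusted P = 0.296) and −0.44 (0.514). Without day 14 liver mouse 2 labelled on they were −2.40 (adjusted P = 0.0118) and −1.02 (0.0347), and without day 14 liver mouse 3 labelled off that of *Runx3* was −2.12 (0.0418), all past both thresholds, in fits that called 3.43% and 6.5% of genes. So an organ difference of *Runx3* was called at one label and not at the other, but the difference between the labels was not past the threshold. Liver minus primary tumor gave −1.71 ± 0.72 for *Runx3* (adjusted P = 0.267) and −0.90 ± 0.34 for *Runx2* (0.210), which without day 14 liver mouse 2 labelled on became −2.25 (0.0478) and −1.17 (0.046), with 0.513% and then 1.35% of genes called, and lung minus primary tumor lay between −0.14 and 0.15 for all 4 members, with 0.0057% of genes called.

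The members varied together across libraries. Pearson's r of log2 CPM over the 35 libraries was 0.74 between *Runx1* and *Runx2*, 0.73 between *Runx2* and *Runx3* and between *Runx1* and *Cbfb*, 0.68 between *Runx1* and *Runx3*, 0.59 between *Runx2* and *Cbfb* and 0.56 between *Runx3* and *Cbfb*. After removing the mean of each of the 12 groups, r was 0.61 for *Runx2* and *Runx3*, 0.54 for *Runx1* and *Cbfb*, 0.50 for *Runx1* and *Runx2*, 0.35 for *Runx1* and *Runx3*, 0.25 for *Runx2* and *Cbfb* and 0.19 for *Runx3* and *Cbfb*. These libraries share organ, label and cell make-up, and the values are given as a description. All correlations include the paired-end library, which held the highest *Runx1*, *Runx3* and *Cbfb*, and none was computed without it. Of the 7 summed marker lists, that of hepatocytes had the most negative r with each member, at −0.75 (*Runx1*), −0.77 (*Runx2*), −0.69 (*Runx3*) and −0.58 (*Cbfb*). In the same order r was −0.71, −0.72, −0.66 and −0.44 with carcinoma cell markers, −0.56, −0.61, −0.39 and −0.57 with lung epithelial markers, and −0.18, −0.08, −0.08 and −0.43 with leukocyte markers. It was positive with endothelial (0.55, 0.43, 0.59 and 0.38), fibroblast (0.45, 0.56, 0.39 and 0.37) and acinar markers (0.47, 0.59, 0.34 and 0.31). After removing group means, hepatocyte markers had the most negative r only for *Runx1* (−0.50). For *Runx2* (−0.39) and *Runx3* (−0.40) carcinoma cell markers did, and for *Cbfb* (−0.53) lung epithelial markers. In the lung epithelial list *Sftpd* had a median of 79.2 CPM and the other genes at most 1.07 CPM. Its sum was 149 to 393 CPM in liver labelled on, so it does not mark lung cells alone. The part of other cells in the member levels was not tested.

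Among 11042 genes with a mean of at least 5 CPM, the 3 whose log2 CPM over the 35 libraries was most like *Runx1* were *Mark4*, a microtubule-affinity kinase (r = 0.90), *Myh9*, the heavy chain of nonmuscle myosin IIA (0.89), and *Soga1* (0.87). For *Runx2* they were *Asap1*, a GTPase-activating protein for ARF (0.93), *Wipf1*, which binds the actin regulator WASP (0.93), and *Timp2*, an inhibitor of matrix metalloproteinases (0.93). Those most like *Runx3* were *Medag* (r = 0.87), *Lrrc8c*, a subunit of volume-regulated anion channels (0.86), and *Bmper*, a BMP-binding secreted protein (0.86). For *Cbfb* they were *Rtn4*, a reticulon of the endoplasmic reticulum (0.87), *Fstl3*, a follistatin-like activin antagonist (0.86), and *Apbb2* (0.83).

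The proteins that work with RUNX factors were followed through 5 lists: 12 corepressors, 6 coactivators, 9 partners that bind DNA beside them, 10 enzymes that modify them and 22 target genes. By label within an organ and day, with all libraries, 1 gene of the 5 lists was called in the 6 comparisons, *Tnfrsf11b*, the gene of the decoy receptor osteoprotegerin. It rose in primary tumors at day 14 (log2 fold change 2.13 ± 0.50, adjusted P = 0.048), where 4.64% of genes were called. Over both days it rose in primary tumors by 1.52 ± 0.35 (adjusted P = 0.0171), where 4.08% were called. In liver at day 7, leaving out the paired-end library leaves 1 library labelled off, and list calls of that fit are not counted here. Over both days in liver metastases, *Wwtr1*, whose product TAZ is a coactivator of RUNX2, fell by 1.65 on the log2 scale (SE 0.30, adjusted P = 0.0166), from a mean of 159 to 51.7 CPM, in a comparison that called 5.67% of genes. Its highest value, 327 CPM, was in the paired-end library, and without that library it fell by 1.20 (adjusted P = 0.018), from a mean of 117 CPM. *Ets1*, which binds DNA together with RUNX1, fell by 1.11 (SE 0.26, adjusted P = 0.0307), but without the paired-end library it was not called (−1.04, adjusted P = 0.0607). *Pf4*, a platelet and megakaryocyte gene, rose by 2.62 ± 0.49 (adjusted P = 0.0171) from 1.55 to 8.003 CPM, and by 2.27 without that library (adjusted P = 0.0182). For *Ets1* the label effects in liver and lung also differed (−1.07 ± 0.26, adjusted P = 0.0276), which was not past the threshold without that library (−0.98, adjusted P = 0.102).

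Between liver and lung labelled on, 0 of 12 corepressors, 0 of 6 coactivators and 0 of 10 modifying enzymes were called, beside 4 of 8 partners tested and 4 of 20 target genes tested, compared with 10.3% of all genes. The median log2 difference was −0.08, 0.06, −0.19, −0.20 and 0.13 for these lists in turn, against 0.01 over all genes and −0.55 over the 4 members. Partners lower in liver were *Cebpb*, a basic leucine zipper factor (87.7 against 227 CPM, log2 difference −1.39 ± 0.33, adjusted P = 0.00773), *Ets1* (36.1 against 74.1 CPM, −1.08 ± 0.17, 0.00069), and *Twist1*, which represses RUNX2 (16.4 against 36.8 CPM, −1.18 ± 0.30, 0.0125). *Ets2* was higher (338 against 161 CPM, 1.00 ± 0.28, adjusted P = 0.0199). The called targets moved both ways: *Spp1*, the gene of osteopontin and a RUNX2 target in bone, was lower (2006 against 7414 CPM, −1.88 ± 0.25, adjusted P = 0.000224), and *Ihh*, Indian hedgehog, was higher (23.0 against 10.4 CPM, 1.17 ± 0.33, adjusted P = 0.0191). The other called targets were *Mpo* and *Sp7*, with means under 1 CPM in both groups. Of the list genes named here and in the rest of the text, *Tnfrsf11b*, *Pf4*, *Ets2*, *Spp1*, *Mpo*, *Sp7* and *Alpl* were chosen after their values were seen.

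Against primary tumors labelled on, liver metastases differed in 8 of 20 target genes, 4 higher and 4 lower, in 2 of 8 partners, 1 of 12 corepressors, 1 of 6 coactivators and 0 of 10 modifying enzymes, compared with 22.2% of all genes. Log2 differences were −2.47 for *Spp1* (adjusted P = 4.12e-06), −1.80 for *Wwtr1* (1.28e-06), −1.99 for *Twist1* (0.000124), −3.37 for *Col10a1*, the collagen of hypertrophic cartilage and a RUNX2 target (0.00123), and 3.38 ± 0.37 for *Ihh* (4.93e-06). *Csf1r*, the macrophage receptor that RUNX1 activates, was at 6.65 CPM in liver and 16.5 CPM in primary tumors (−1.31 ± 0.43, adjusted P = 0.0228). The corepressor was *Runx1t1* (ETO), at a mean of 0.389 CPM in liver and 3.85 CPM in primary tumors. The list medians were 0.53 (targets), −0.31 (partners), −0.28 (corepressors), −0.32 (coactivators) and −0.02 (modifying enzymes), against 0.04 over all genes and −0.92 over the 4 members. Fibroblast markers differed between these organs as given above, and their part in the collagen and matrix genes was not tested.

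Among libraries labelled off, 1 list gene was called between liver and lung, *Alpl*, which encodes alkaline phosphatase (0.707 against 2.20 CPM, log2 difference −1.74 ± 0.45, adjusted P = 0.0326), beside 3.95% of all genes. It was not called without the paired-end library (−1.52, adjusted P = 0.0576). In that fit 2 of 21 targets were called, 1 higher and 1 lower in liver, beside 4.18% of all genes. Lung metastases and primary tumors labelled off differed in 6 of 19 targets, 2 of 8 partners and 1 gene of each of the other lists, compared with 18.4% of all genes. *Cebpb* was higher in lung (133 against 39.9 CPM, 1.69 ± 0.51, adjusted P = 0.0162), as was *Pim1*, a kinase that phosphorylates RUNX proteins (159 against 65.6 CPM, 1.21 ± 0.27, 0.00244), whereas *Wwtr1* was lower (98.1 against 253 CPM, −1.40 ± 0.24, 0.000454). Between liver and primary tumors labelled off, 4 of 19 targets and 1 of 8 partners were called, beside 8.68% of all genes. Without the paired-end library these counts were 6 of 21 and 2 of 8, with 2 of 12 corepressors and 1 of 6 coactivators, beside 15.3% of all genes. Between lung and primary tumors labelled on, where 13.6% of all genes were called, 6 of 20 targets and 1 gene each of the partners, coactivators and corepressors were. *Cebpb* was also higher in lung labelled on than in primary tumors labelled on, at 227 against 55.9 CPM (2.02 ± 0.35, adjusted P = 0.000675).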

How the data were processed

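Per the labels and the study's methods, mKate2+ cells were sorted by FACS, poly(A) RNA was sequenced as 75-base single-end reads (1 library is labelled paired-end), and reads were trimmed with Trimmomatic 0.36 after FastQC 0.11.5, aligned to GRCm38 with STAR 2.5.3a and counted per gene with featureCounts 1.6.3. The deposited values are the authors' raw counts for 53465 genes in 35 libraries, and the strand setting of the counting was not given in the sources used here. Libraries held 11885461 to 43571007 counts, so the floor of 3 counts was 0.0684 to 0.239 CPM. Intervals cover counting and replicate spread as the model estimates them.

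Groups follow the labels. Genes were filtered with filterByExpr (minimum count 10, minimum total 15), and TMM-normalized counts were fitted in edgeR 4.0.16 (R 4.3.3) with the quasi-likelihood test, on the groups being compared, with day as a term in fits over both days. P values were Benjamini-Hochberg adjusted over all genes tested and calls needed an adjusted P under 0.05 and a fold over 2, the study's thresholds. CPM values use effective library sizes, the raw totals multiplied by TMM factors computed over all 35 libraries. Log2 CPM for correlations used a prior count of 2. The labels number the mice but do not say whether the same number marks a shared batch. Same-numbered libraries deviated from their group means together in liver metastases at day 14 (r = 0.125, 0.121 and 0.549 over genes) and lung metastases at day 14 (0.475, 0.487, 0.551 and 0.517), in the latter along the *mt-Co3* split. Differently numbered libraries within the same part of that split also did so, at 0.393 and 0.208 in liver. In lung the values were 0.548, 0.580, 0.552 and 0.446. The main fits did not use the numbers as a block. Such a block was run only as an alternative, wherever the model allowed it, and it cannot tell pairs from the *mt-Co3* split.

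Alternatives were DESeq2 1.42.0, its size factors, other filters, no fold threshold, 1 fit of 12 groups, the number as a block, *mt-Co3* as a covariate, single days and leaving out each library. List genes without the paired-end library and CPM on raw totals were added after seeing the data. Scripts were tested on simulated data. Members, gene lists and tests were chosen with earlier results of these data known. From each list the genes called in the most comparisons were named (up to 3, ties by the larger fold change), and the 3 genes most like each member, and others are marked in the text.

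Levels per kb use the transcript length given in the deposited table, which for *Runx2*, *Runx3* and *Cbfb* equals the union of all their annotated exons. Exon overlaps came from the annotation of GRCm38, and promoter windows from RefSeq (GRCm38.p6), where all 4 members matched. The longest run shared by transcripts of 2 members was 38 bases (*Runx1* and *Runx3*), shorter than a read. Antisense exons overlap 0.88% of *Runx1* exon bases (*Gm26626*) and 5.87% of those of *Runx2* (*Runx2os1*).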

Additional observations from a re-analysis of the deposited data

Results flagged for a closer look

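One member value lay far from the other libraries of its group. *Runx3* in lung metastases at day 14, labelled off, was at 14.4 CPM in mouse 3, below the other 3 libraries, which held 16.3 to 16.6 CPM. Its gap to the nearest of them, as a share of the group's range, passed Dixon's 95% limit. Such gaps were looked for in 12 cases (the 4 members in groups of at least 4 libraries), and chance passes that limit in about 1 case in 20.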

How the results depend on the processing

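Of 1636 values of the members under the alternatives, 1541 kept their direction and side of the threshold, 24 passed it when the value reported did not, 3 no longer passed it and 68 turned in sign, none of the last past the threshold. The cause of each change was not tested.

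Counts of members called changed as follows. In liver metastases at day 7 by label (0 called) a single fit of all groups called 2, DESeq2 2 and no filter 1, and leaving out 1 library 0 to 4. There the single fit called 17.6% of all genes and DESeq2 9.87%, and the calls with no filter are given below. Over both days in liver DESeq2 called 1, in a fit whose share of all genes is not given here. Leaving out 1 library gave 0 to 2, with 6.51% of genes called in the fit that gave 2. Day 14 alone called 1 between liver and lung labelled off (0.874% of genes), and 0 between liver and lung and between liver and primary tumors labelled on, where day 7 alone called 2 against lung (6.41% of genes). The liver minus lung difference of label effects called 1 with DESeq2 (2.44% of genes) and 2 at day 7 alone (share not given here). Without 1 library it called 0 to 2, with 3.43% of genes called in the fit that gave 2. Liver minus primary tumor called 0 to 2 without 1 library, with 1.35% of genes called in the fit that gave 2. With no fold threshold the counts were 2 in primary tumors by label at day 14 (12.9% of genes) and 1 over both days (15%), and 1 in liver over both days (8.52%). They were 1 between lung and primary tumors labelled off (34.4%), 2 between liver and lung labelled on (20.2%) and 4 between liver and primary tumors labelled on (40.6%).

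Values that turned in sign were near 0 or came from fewer libraries. At day 7 alone, labelled off, these were liver against lung for *Runx1* (0.18) and *Runx3* (1.17) and liver against primary tumors for *Runx3* (0.29) and *Cbfb* (0.0478). Day 14 alone turned *Cbfb* to −0.0153 (liver and lung labelled off), 0.11 (liver and primary tumors labelled off) and 0.13 (lung and primary tumors labelled off), and *Runx3* to 0.69 and −0.24 between lung and primary tumors labelled off and on. Among differences of label effects it turned *Runx1* to 0.16 (liver minus primary tumor) and *Runx3* to −0.93 (lung minus primary tumor), and day 7 alone turned *Cbfb* to 0.17 and no filter to 0.0182 in the latter. *Cbfb* between liver and primary tumors labelled off became 0.0262 with DESeq2, 0.0252 with its size factors, 0.0421 with no filter and 0.0427 with 10 counts in every library.

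Leaving out 1 library in turn gave by label −0.16 to 0.0112 for *Runx1* and −0.39 to 0.16 for *Cbfb* in lung at day 7, and over both days −0.37 to 0.20 for *Runx3* in primary tumors and −0.0875 to 0.21 in lung. Labelled off it gave −0.0931 to 0.33 for *Runx2* and −0.81 to 0.0452 for *Runx3* (liver and lung), −0.15 to 0.10 for *Cbfb* (liver and primary tumors) and −0.22 to 0.14 for *Runx3* (lung and primary tumors). Labelled on, lung and primary tumors gave −0.15 to 0.25 for *Runx3* and −0.14 to 0.0207 for *Cbfb*. Among differences of label effects it gave −0.29 to 0.10 for *Runx1* (liver minus primary tumor), and −0.0645 to 0.47 for *Runx3* and −0.12 to 0.10 for *Cbfb* (lung minus primary tumor).

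With the replicate number as a block no call of a member changed. It moved the calls over all genes from 4 to 109 in lung metastases at day 14, and turned in sign *Runx2* in lung at day 7 (−0.0062), *Runx3* over both days in primary tumors (0.033) and lung (−0.11), *Runx3* between lung and primary tumors labelled on (−0.10) and *Runx3* in the difference of those label effects (−0.15). In the other organ and day groups only 2 numbers were shared, which is no check of pairing, and there the block took calls from 192 to 0 (primary tumors, day 7) and from 71 to 0 (liver, day 7). Over all genes, the 71 calls in liver at day 7 became 3097 in a single fit, 2887 with DESeq2, 1022 with the *mt-Co3* covariate, 977 with no filter and 354 with 10 counts in every library. In primary tumors the single fit took 192 calls to 42 at day 7 and 661 to 16 at day 14. DESeq2 called 331 genes at day 14 in liver, 213 at day 14 in lung and 108 at day 7 in lung, against 0, 4 and 0.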

Other observations

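*Runx2os1*, an antisense gene whose exons overlap 5.87% of the exon bases of *Runx2*, had 2 to 47 counts per library, compared with 334 to 2635 for *Runx2*. Since the strand setting of the counting was not given, reads of the overlap cannot be assigned to one of them with certainty.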
